A study of Mus musculus with 32 samples.

Results

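The genes described here mark macrophages and dendritic cells, the phagocytes and antigen-presenting cells that live in fat and liver. A list of 39 marker genes was written by hand, and each symbol was looked up among the 47643 Ensembl gene IDs of the count table, where all 39 were present. The list fell into 16 pan-macrophage genes, 8 genes of resident or M2-like (alternatively activated) macrophages, 4 Kupffer cell genes, 4 genes of lipid-associated macrophages, 2 chemokine receptors of monocytes and 5 dendritic cell genes. RNA came from epididymal white adipose tissue (eWAT) and liver of male C57BL/6 mice that were 10 weeks old when the study began. For 7 days the mice drank water with 1% ethanol, either alone (Veh) or with corticosterone at 100 µg/mL (Cort), the main glucocorticoid of mice. They ate purified diets of equal energy with 20% (NPD, normal protein) or 60% (HPD, high protein) of kcal from protein, where the HPD held less carbohydrate. Each tissue had 4 libraries in each of the groups Veh NPD, Cort NPD, Veh HPD and Cort HPD. The question was how the marker genes of these cells responded to Cort in each tissue, and whether the diet altered the response.

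Macrophages of adipose tissue clear dying cells and take up lipid, and in lean fat most of them are long-lived resident cells that carry scavenger and lectin receptors. Kupffer cells are the macrophages of the liver sinusoids, which catch particles and microbes from portal blood. Monocytes from blood enter tissues through chemokine receptors such as CCR2 and can renew both populations, and dendritic cells carry antigens to lymph nodes. Glucocorticoids act on all of these cells through the glucocorticoid receptor, a nuclear receptor best known for dampening inflammation.

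The 32 libraries, prepared with a kit that reads transcripts from their 3′ end, held 8933307 to 18057936 counts. Liver Veh HPD replicate 4, which the authors left out as an outlier, was left out of the liver tests, which used 15 libraries. In eWAT, Cort HPD replicate 4 stood apart with 13150 CPM (counts relative to the library total, scaled by TMM factors) over a list of epididymis genes, against at most 11.1 CPM in the other eWAT libraries, and it was kept. Levels are given in CPM in the order of the replicate numbers, and means with their SD over 4 libraries, or 3 for liver Veh HPD. Genes were tested in 1 fit per tissue with edgeR's quasi-likelihood test and called at a Benjamini-Hochberg adjusted p under 0.05, adjusted over all genes tested (15187 in eWAT and 12391 in liver). In whole tissue, fewer cells of a type and less RNA per cell cannot be told apart.

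The levels of the members were compared between the tissues. In Veh NPD, 29 of the 39 members were higher in every eWAT library than in any liver library, 4 were higher in every liver library (Clec4f, Cd5l, Vsig4 and Spp1) and 6 overlapped between the tissues. The TMM factors were fitted within each tissue, and the share of all genes that separated the tissues in this way was not computed. These counts therefore do not set the members apart from other genes. Clec4f, the lectin receptor that defines mouse Kupffer cells, was at 46.6 ± 1.45 CPM in Veh NPD liver and had no count in any of the 16 eWAT libraries, so it was not tested in eWAT. The other 38 members passed the filter on low counts in eWAT. In liver 31 members passed, and Lyz1, Retnla, Mgl2, Itgax, Xcr1, Clec9a, Flt3 and Cd209a did not. Lyz1 and Lyz2 are near-identical neighbours on chromosome 10, as are Mgl2 and Clec10a on chromosome 11, and how reads shared between such copies were counted is not given in the sources used here. Lyz1 held 13.5% ± 2.20 of the count of Lyz2 in eWAT (n = 16) and 0.303% ± 0.272 in liver (n = 15).

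Promoters are shown for 5 members whose response to Cort carried the results below: Retnla and Mgl2, which fell in eWAT on both diets, Clec4f, which fell in liver on both diets, and Cd5l and Vsig4, whose response had opposite signs in the 2 tissues. Each sequence is the RefSeq window of the build GRCm38.p6 from 250 bases before to 50 bases after the start of the gene, written 5′ to 3′ on the strand of the gene. The windows lie at chr16:48842359-48842658 (Retnla, plus strand), chr11:70130107-70130406 (Mgl2, plus strand), chr6:83656067-83656366 (Clec4f, minus strand), chr3:87357631-87357930 (Cd5l, plus strand) and chrX:96293389-96293688 (Vsig4, minus strand). Capitals mark matches, on either strand, to 5 motifs: GAGGAAGT for PU.1 (the lineage factor of macrophages), TTGCNNAA for C/EBP factors, TTC and GAA with 4 bases of any kind between them for STAT6 (the factor that IL-4 signalling activates), and for the glucocorticoid receptor AGAACA alone or followed by 3 bases of any kind and TGTTCT, so that every match of the longer motif is also one of the shorter.
Retnla: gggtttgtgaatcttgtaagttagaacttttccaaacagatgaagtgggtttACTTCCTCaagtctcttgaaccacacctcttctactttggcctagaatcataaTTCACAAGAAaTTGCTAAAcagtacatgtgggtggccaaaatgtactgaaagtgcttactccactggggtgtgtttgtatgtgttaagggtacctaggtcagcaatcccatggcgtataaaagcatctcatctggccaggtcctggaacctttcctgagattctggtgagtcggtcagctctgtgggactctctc
Mgl2: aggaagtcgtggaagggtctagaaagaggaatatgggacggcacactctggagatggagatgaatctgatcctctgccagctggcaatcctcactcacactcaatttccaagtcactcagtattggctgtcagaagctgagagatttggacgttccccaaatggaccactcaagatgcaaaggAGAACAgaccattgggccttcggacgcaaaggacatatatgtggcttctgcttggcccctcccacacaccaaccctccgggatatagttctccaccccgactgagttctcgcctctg
Clec4f: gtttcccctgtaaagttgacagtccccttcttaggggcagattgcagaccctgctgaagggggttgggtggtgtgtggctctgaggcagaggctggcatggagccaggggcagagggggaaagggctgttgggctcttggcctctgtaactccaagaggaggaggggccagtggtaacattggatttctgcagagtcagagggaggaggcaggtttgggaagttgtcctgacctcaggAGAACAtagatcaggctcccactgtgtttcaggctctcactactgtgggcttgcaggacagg
Cd5l: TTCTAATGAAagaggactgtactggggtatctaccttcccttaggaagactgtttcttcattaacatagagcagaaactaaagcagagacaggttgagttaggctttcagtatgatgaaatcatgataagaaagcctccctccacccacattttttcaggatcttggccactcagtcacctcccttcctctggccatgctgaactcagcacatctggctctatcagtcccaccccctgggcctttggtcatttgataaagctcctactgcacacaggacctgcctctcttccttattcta
Vsig4: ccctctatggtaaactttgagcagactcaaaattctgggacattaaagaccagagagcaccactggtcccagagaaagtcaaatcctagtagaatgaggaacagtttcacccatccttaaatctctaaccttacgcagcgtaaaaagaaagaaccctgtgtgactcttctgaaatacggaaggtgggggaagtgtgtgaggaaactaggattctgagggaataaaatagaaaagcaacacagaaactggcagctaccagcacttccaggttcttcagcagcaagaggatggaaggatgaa
In the Retnla window the capitals mark PU.1 letters on the opposite strand from -198, STAT6 letters from -145 and C/EBP letters from -134, counted from the RefSeq start site. Mgl2 held AGAACA from -67 and Clec4f held it from -12. Cd5l held STAT6 letters at the first base of the window, -250, and the Vsig4 window held none of the 5 motifs.

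Of the 39 members, 32 had a window in the RefSeq table. The shorter glucocorticoid receptor motif was in 12 of the 32 and in 19.0% of the 27025 promoters of the table, and the longer motif was in 0 of the 32 and in 0.0037% of the promoters. PU.1, C/EBP and STAT6 letters were in 4 members each, against 3.28%, 10.8% and 6.99% of all promoters. These matches describe letters in short windows and do not show binding.

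In eWAT of mice fed the NPD, Cort lowered 6 of 16 pan-macrophage genes, 3 of 8 resident or M2-like genes, 1 of 4 lipid-associated genes, 1 of 2 chemokine receptors and 2 of 5 dendritic cell genes. Of the 38 members tested, 14 were called, 1 higher (Vsig4) and 13 lower, where 7.98% of all genes tested were called (4.05% higher and 3.93% lower). The median log2 fold change was -0.23 over the members and -0.02 over all genes. Retnla, Ccr2, Itgax and Cd209a had log2 fold changes below -2, and Xcr1 had no count left. Among the members called on the NPD, 8 kept their call in every fit that left out 1 library, and the count was 9 without Veh NPD replicate 2 or without Cort NPD replicate 1. On the HPD, 11 members were called, 3 higher (Cd68, Folr2 and Cd5l) and 8 lower, where 6.09% of all genes were called (3.46% higher and 2.63% lower). The median there was -0.12 over the members and -0.00 over all genes, and 6 members were called on both diets (Adgre1, Mrc1, Retnla, Mgl2, Ccr2 and Cd209a), which is 6 of the 14 called on the NPD and 6 of the 11 called on the HPD. The HPD count rested on few libraries: it was 5 and 7 without Veh HPD replicates 1 and 2, and 4 and 6 without Cort HPD replicates 3 and 4.

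**Figure D1:**
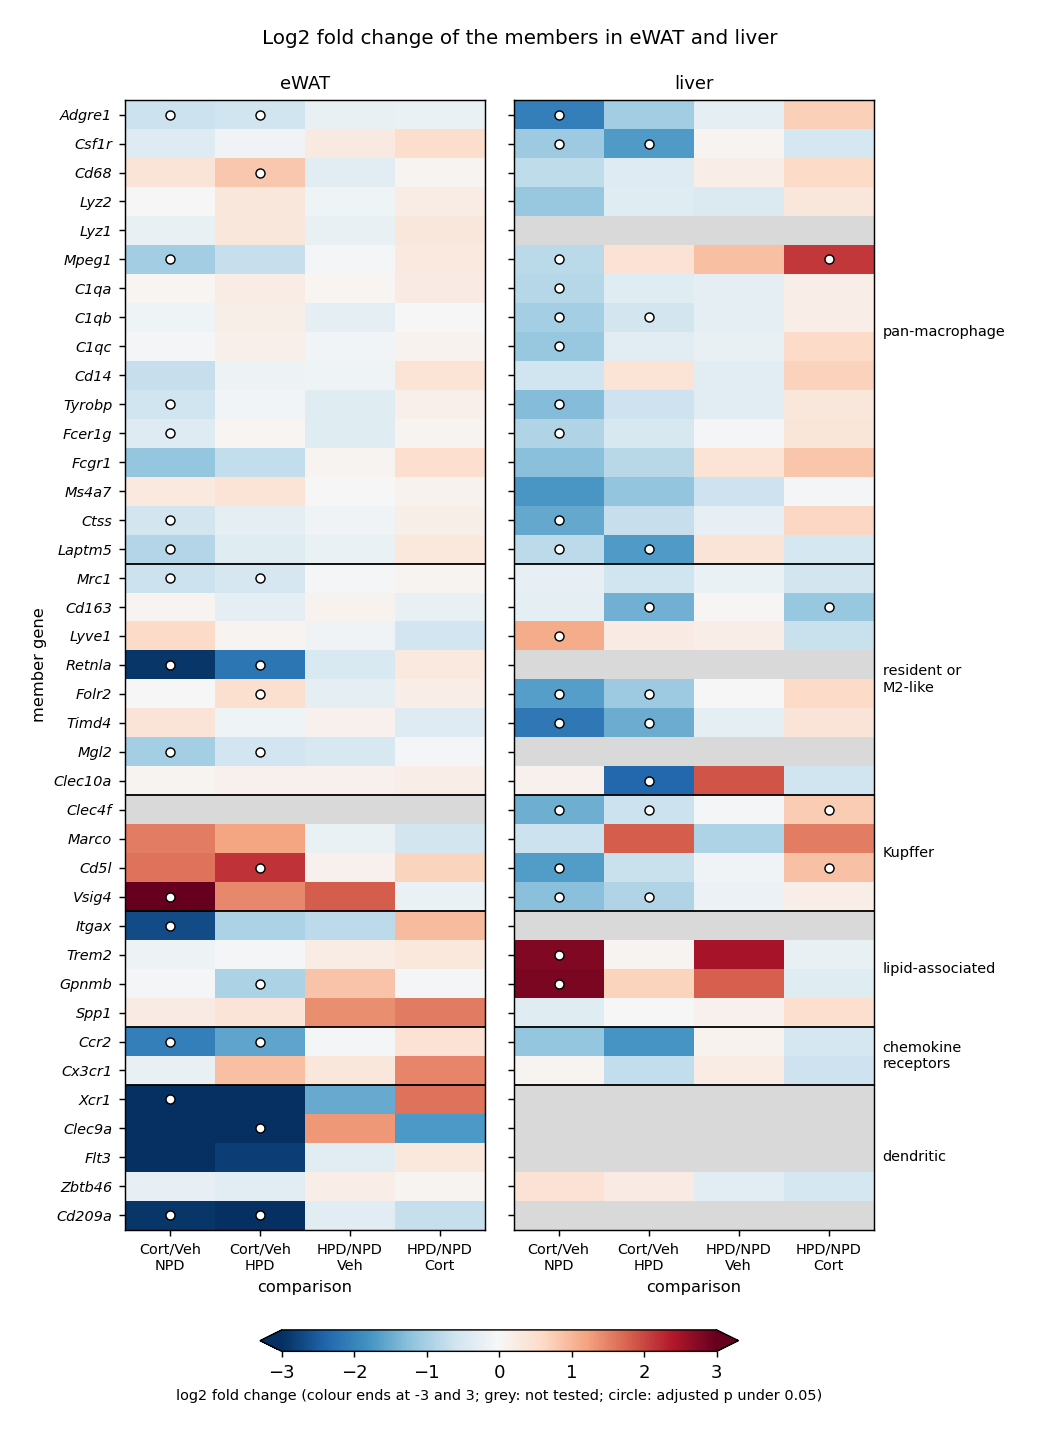
Log2 fold changes of the 39 members (rows, by group) for 4 comparisons (columns) in eWAT and liver, with colour ending at -3 and 3, grey for members not tested and a circle for an adjusted p under 0.05. The circles lie mostly in the Cort columns (14 and 11 in eWAT, 18 and 9 in liver), and the colour of Xcr1 and Clec9a in eWAT gives no size, since they were at or near 0 counts with Cort.

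Among the pan-macrophage genes of eWAT, 6 of 16 fell on the NPD and 10 were not called. Laptm5, which encodes a lysosomal membrane protein of blood cells, was at 69.0, 64.9, 83.2 and 75.9 CPM in Veh NPD and at 36.2, 40.9, 32.7 and 49.95 CPM in Cort NPD (log2 fold change -0.88, SE 0.16, adjusted p = 0.00056). Tyrobp, the adaptor through which many macrophage receptors signal, was at 64.3, 67.5, 72.0 and 57.2 CPM in Veh NPD and at 42.3, 38.3, 44.6 and 48.7 CPM in Cort NPD (log2 fold change -0.59, SE 0.13, adjusted p = 0.0056). For both genes every Cort library was below every Veh library. On the HPD neither was called: Laptm5 was at 64.0 ± 14.5 CPM in Veh and 49.6 ± 5.91 CPM in Cort, Tyrobp at 51.1 ± 7.73 and 48.4 ± 4.99 CPM, and the interaction of diet and Cort was not called for either (adjusted p = 0.92 and 0.86).

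Adgre1 (ENSMUSG00000004730, chromosome 17 from 57358691 to 57483527 on GRCm38), which encodes the classic mouse macrophage surface marker, fell on both diets. It was at 44.9, 35.4, 47.4 and 47.8 CPM in Veh NPD and at 27.0, 29.4, 23.6 and 32.9 CPM in Cort NPD (log2 fold change -0.64, SE 0.17, adjusted p = 0.014). On the HPD it was at 38.1, 29.4, 48.4 and 33.8 CPM in Veh and at 29.0, 25.7, 22.3 and 21.4 CPM in Cort (log2 fold change -0.61, SE 0.17, adjusted p = 0.026). The groups did not overlap on either diet, although on the HPD the lowest Veh and the highest Cort library nearly met. Its NPD call was lost without Cort NPD replicate 3 (adjusted p = 0.062) and its HPD call in 4 of 16 fits that left out 1 library.

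Ctss, the lysosomal protease cathepsin S that trims antigens for presentation, was at 89.9, 132, 131 and 122 CPM in Veh NPD and at 80.1, 77.998, 87.9 and 80.6 CPM in Cort NPD (log2 fold change -0.54, SE 0.15, adjusted p = 0.023). Mpeg1, whose pore-forming protein acts on engulfed bacteria, was at 16.5, 27.8, 16.7 and 20.0 CPM in Veh NPD and at 7.40, 10.2, 6.55 and 15.3 CPM in Cort NPD (log2 fold change -1.04, SE 0.28, adjusted p = 0.02). Fcer1g, the signalling chain of Fc receptors, was at 64.2, 74.6, 64.5 and 67.7 CPM in Veh NPD and at 55.1, 58.0, 46.0 and 48.2 CPM in Cort NPD (log2 fold change -0.39, SE 0.12, adjusted p = 0.047). The groups of these 3 genes did not overlap on the NPD, but the calls were weak: they were lost in 5, 3 and 12 of 16 fits that each left out 1 library. On the HPD their log2 fold changes were -0.26 (Ctss), -0.69 (Mpeg1) and 0.07 (Fcer1g), none called.

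Cd68, a lysosomal glycoprotein of phagocytes, went the other way. On the HPD it rose from 27.2, 36.2, 34.7 and 19.0 CPM in Veh to 47.2, 58.7, 56.0 and 45.2 CPM in Cort (log2 fold change 0.82, SE 0.18, adjusted p = 0.0061), with no overlap of the groups and the call kept in all 16 fits that left out 1 library. On the NPD it was at 37.1 ± 9.42 CPM in Veh and 48.7 ± 6.48 CPM in Cort (log2 fold change 0.39, adjusted p = 0.22). The other 9 pan-macrophage genes were called on neither diet, and their log2 fold changes lay between -1.15 (Fcgr1) and 0.29 (Ms4a7) on the NPD and between -0.74 (Fcgr1) and 0.42 (Ms4a7) on the HPD. They include Lyz2, which encodes the lysozyme of myeloid cells, at 542 ± 28.0 CPM in Veh NPD and 537 ± 88.2 CPM in Cort NPD, and the genes of complement C1q, whose sum of C1qa, C1qb and C1qc was 509 ± 55.0 CPM in Veh NPD, 494 ± 55.2 CPM in Cort NPD, 471 ± 35.5 CPM in Veh HPD and 537 ± 61.6 CPM in Cort HPD. Csf1r, the receptor for the main growth factor of macrophages, was at 136 ± 14.1 CPM in Veh NPD and 104 ± 10.4 CPM in Cort NPD without overlap, but its adjusted p was 0.072. The summed level of the 16 genes was 1622 to 1778 CPM in Veh NPD and 1344 to 1651 CPM in Cort NPD, which overlapped narrowly. On the HPD it was 1444 to 1858 CPM in Veh and 1560 to 1918 CPM in Cort. Lyz2 and the C1q genes, with means of 542 and 509 CPM, gave much of the mean sum of 1722 CPM in Veh NPD. The sum therefore says little about the genes called.

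In the resident or M2-like group of eWAT, 3 of 8 genes fell on both diets and 1 rose on the HPD. Retnla, with the identifier ENSMUSG00000061100 and the position 48842551 to 48844461 of chromosome 16 (GRCm38), encodes the secreted protein RELMα that macrophages make under IL-4. It was at 1298, 1431, 1079 and 1444 CPM in Veh NPD and at 196, 186, 108 and 208 CPM in Cort NPD. The HPD libraries held 1031, 866, 1190 and 749 CPM in Veh and 226, 181, 203 and 246 CPM in Cort. Every Cort library was far below every Veh library on both diets. The log2 fold change was -2.91 (SE 0.18, adjusted p = 1.3e-10) for NPD and -2.17 (SE 0.18, adjusted p = 1.4e-08) for HPD. The interaction of diet and Cort was 0.75 on the log2 scale and was not called (SE 0.24, adjusted p = 0.86).

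Retnla held 33.1% to 38.1% of the summed CPM of the members in Veh NPD eWAT and 4.72% to 9.25% in Cort NPD, and on the HPD 27.5% to 33.2% in Veh and 7.47% to 10.98% in Cort. It therefore set the sums it entered: the resident or M2-like genes added to 1494 to 2025 CPM in Veh NPD and 594 to 727 CPM in Cort NPD, but without Retnla to 415 to 581 CPM and 432 to 518 CPM. On the HPD the same sums were 1182 to 1678 CPM in Veh and 595 to 726 CPM in Cort with Retnla, and 434 to 488 CPM and 349 to 501 CPM without it.

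Mgl2, which encodes a galactose-binding lectin receptor of alternatively activated macrophages and some dendritic cells, fell with it. It was at 105, 87.5, 82.8 and 93.6 CPM in Veh NPD and at 51.4, 42.1, 43.0 and 45.8 CPM in Cort NPD (log2 fold change -1.02, SE 0.14, adjusted p = 2.5e-05). HPD values were 85.2, 56.3, 68.1 and 53.4 CPM in Veh and 46.0, 46.1, 47.1 and 37.0 CPM in Cort (log2 fold change -0.58, SE 0.14, adjusted p = 0.013). No Cort library reached the lowest Veh library on either diet, and without Veh HPD replicate 1 the gene was no longer called on that diet (adjusted p = 0.092). The neighbouring and similar gene Clec10a was not called, at 66.5 ± 9.25 CPM in Veh NPD, 70.5 ± 12.7 CPM in Cort NPD, 72.9 ± 17.0 CPM in Veh HPD and 80.3 ± 14.2 CPM in Cort HPD.

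Mrc1, the mannose receptor, was at 99.8, 96.6, 92.0 and 124 CPM in Veh NPD and at 61.0, 66.7, 56.3 and 79.2 CPM in Cort NPD (log2 fold change -0.65, SE 0.14, adjusted p = 0.0044). With the HPD the gene was at 109, 95.2, 111 and 82.8 CPM in Veh and at 83.5, 68.2, 74.4 and 53.9 CPM in Cort (log2 fold change -0.51, SE 0.14, adjusted p = 0.033). The groups were apart on the NPD and overlapped narrowly on the HPD, where the call was lost in 6 of 16 fits that left out 1 library. Folr2, a folate receptor of resident macrophages, was called on the HPD alone, rising from 53.0, 48.4, 66.9 and 45.1 CPM in Veh to 83.6, 76.8, 77.7 and 59.7 CPM in Cort with overlap (log2 fold change 0.48, SE 0.14, adjusted p = 0.045), and 11 of 16 fits lost this call. On the NPD its log2 fold change was -0.00 (adjusted p = 1), and the interaction was not called (adjusted p = 0.91). The hemoglobin scavenger receptor gene Cd163 was at 72.3 ± 14.5 CPM in Veh NPD and 76.0 ± 9.54 CPM in Cort NPD, and the phosphatidylserine receptor gene Timd4 at 3.95 ± 1.19 and 5.19 ± 1.63 CPM. Lyve1, a hyaluronan receptor of resident macrophages and lymphatic vessels, was at 102 ± 27.2 CPM in Veh NPD and 150 ± 24.6 CPM in Cort NPD (adjusted p = 0.069), and none of these 3 was called on either diet.

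**Figure D2:**
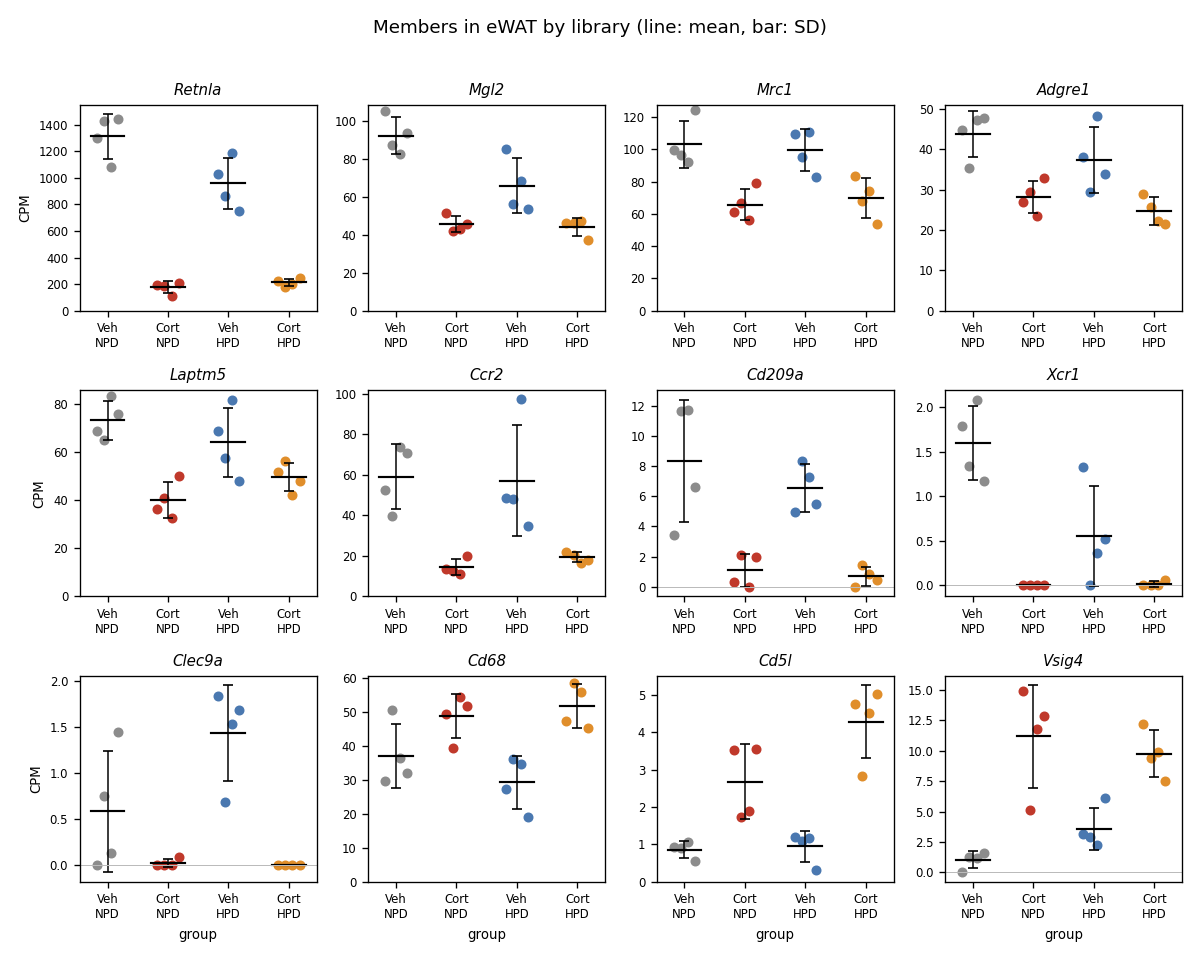
CPM of 12 members in each eWAT library, by group, with the mean as a line and the SD as a bar. Retnla fell from 749 to 1444 CPM in the Veh libraries to 108 to 246 CPM in the Cort libraries, Xcr1 and Clec9a were at or near 0 with Cort, and Cd68, Cd5l and Vsig4 were each called higher with Cort on 1 diet.

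The genes named for Kupffer cells were scarce in eWAT, where Vsig4 rose on the NPD and Cd5l on the HPD. Vsig4, a complement receptor of resident macrophages that is also made by macrophages outside the liver, was at 0, 1.27, 1.21 and 1.58 CPM in Veh NPD and at 14.9, 5.16, 11.8 and 12.8 CPM in Cort NPD (log2 fold change 3.46, SE 0.57, adjusted p = 0.00042). Under the HPD, levels were 3.11, 2.87, 2.26 and 6.10 CPM in Veh and 12.2, 9.37, 9.90 and 7.53 CPM in Cort, with no overlap but an adjusted p of 0.1 (log2 fold change 1.44, SE 0.51). The interaction was -2.02 (SE 0.74) and not called (adjusted p = 0.86).

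Cd5l, which encodes a secreted scavenger protein that macrophages make under liver X receptors, was at 1.21, 1.10, 1.16 and 0.324 CPM in Veh HPD and at 4.76, 2.84, 4.52 and 5.02 CPM in Cort HPD (log2 fold change 2.17, SE 0.58, adjusted p = 0.022). On the NPD it was at 0.926, 0.893, 1.08 and 0.551 CPM in Veh and at 3.53, 1.74, 1.89 and 3.56 CPM in Cort (log2 fold change 1.63, SE 0.58, adjusted p = 0.085). Its Cort libraries were above all Veh libraries on both diets, and the HPD call was lost without Cort HPD replicate 1, 3 or 4 (adjusted p = 0.059, 0.053 and 0.056). The bacterial scavenger receptor gene Marco was at 0.556 to 3.23 CPM in Veh NPD and 0 to 9.91 CPM in Cort NPD and was not called. Liver RNA was looked for beside these values: Clec4f was at 0, and of 5 hepatocyte genes tested in eWAT 0 were called on either diet, with Alb at 56.6 ± 9.48, 62.6 ± 8.76, 51.3 ± 17.5 and 62.9 ± 15.7 CPM in Veh NPD, Cort NPD, Veh HPD and Cort HPD. The hepatocyte list added to 914 to 2154, 2079 to 3997, 1293 to 2480 and 2482 to 2964 CPM in these groups, of which Cyp2e1 alone gave means of 1517, 2971, 1720 and 2634 CPM, and the part of other cells in the Vsig4 and Cd5l values was not tested.

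Of the 4 lipid-associated genes, which mark macrophages loaded with lipid, 1 fell on each diet. Itgax, the CD11c integrin of inflammatory fat macrophages and dendritic cells, was at 4.76, 7.07, 7.06 and 7.16 CPM in Veh NPD and at 1.15, 1.38, 0 and 1.51 CPM in Cort NPD (log2 fold change -2.68, SE 0.74, adjusted p = 0.026). Its groups did not overlap, and the call was lost in 5 of 16 fits that left out 1 library. On the HPD it was at 3.30, 8.88, 2.32 and 0.649 CPM in Veh and 0.645, 3.37, 2.26 and 1.61 CPM in Cort, not called (adjusted p = 0.52).

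Gpnmb, a glycoprotein of lipid-laden macrophages, was at 19.8, 40.8, 17.4 and 24.2 CPM in Veh HPD and at 13.7, 11.5, 9.64 and 17.7 CPM in Cort HPD (log2 fold change -0.96, SE 0.25, adjusted p = 0.02). The groups overlapped, Veh HPD replicate 2 was far above the rest, and without it the log2 fold change was -0.64 (adjusted p = 0.16). On the NPD Gpnmb was at 14.2 ± 3.65 and 13.6 ± 2.06 CPM. Trem2, the lipid receptor of these macrophages, was at 2.53 to 5.31 CPM in Veh NPD and 1.70 to 5.61 CPM in Cort NPD. Spp1, which encodes osteopontin, had 0 to 52 counts per library, and neither was called on either diet.

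The monocyte receptor Ccr2 fell on both diets. It was at 52.3, 39.8, 73.5 and 70.5 CPM in Veh NPD and at 13.2, 12.6, 10.96 and 20.0 CPM in Cort NPD (log2 fold change -2.06, SE 0.29, adjusted p = 0.0002). The HPD libraries held 48.6, 47.7, 97.2 and 34.5 CPM in Veh and 21.8, 20.5, 16.4 and 18.0 CPM in Cort (log2 fold change -1.57, SE 0.28, adjusted p = 0.0022). All Cort libraries were below all Veh libraries, and both calls were kept in every fit that left out 1 library. Cx3cr1, the fractalkine receptor, was not called, at 2.58 ± 1.33 CPM in Veh NPD, 2.23 ± 0.984 CPM in Cort NPD, 3.28 ± 2.80 CPM in Veh HPD and 6.12 ± 5.49 CPM in Cort HPD. The highest of its values, 14.2 CPM, was in Cort HPD replicate 4, the library with epididymis transcripts.

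Of the 5 dendritic cell genes of eWAT, 2 fell on each diet, Xcr1 and Cd209a on the NPD and Clec9a and Cd209a on the HPD. Xcr1, a chemokine receptor of the dendritic cells that cross-present antigen, was at 1.79, 1.34, 2.08 and 1.17 CPM in Veh NPD and had no count in any Cort NPD library. With 95 counts against 0, it was at least 28.1-fold lower with Cort, taking 3 counts over the group as the floor (adjusted p = 0.013). In eWAT, Xcr1 passed the filter on low counts through Veh libraries alone, so this call leans on the group where the gene was high. HPD values were 1.33, 0, 0.367 and 0.519 CPM in Veh and 0, 0, 0 and 0.0644 CPM in Cort, 35 counts against 1, a ratio of 27.5 (95% interval 4.63 to 1119 from the counts alone), and it was not called (adjusted p = 0.13).

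Clec9a, which lets the same dendritic cells recognise dead cells, was called on the other diet. With the HPD the gene was at 1.84, 0.679, 1.53 and 1.69 CPM in Veh and had no count in Cort, 93 counts against 0, and so was at least 24.4-fold lower (adjusted p = 0.024). Like Xcr1, Clec9a passed the filter through Veh libraries alone, and its call has the same limit. On the NPD it was at 0, 0.745, 0.134 and 1.45 CPM in Veh and at 0, 0, 0 and 0.0890 CPM in Cort, 33 counts against 1, a ratio of 29.3 (95% interval 4.90 to 1192), not called (adjusted p = 0.13). The interaction was called for neither gene (adjusted p = 0.99 for both), and the HPD call of Clec9a was lost in 5 of 16 fits that left out 1 library.

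Cd209a, the mouse DC-SIGN lectin of monocyte-derived and conventional dendritic cells, was at 3.40, 11.6, 11.7 and 6.61 CPM in Veh NPD and at 0.340, 2.11, 0 and 1.959 CPM in Cort NPD (log2 fold change -2.92, SE 0.83, adjusted p = 0.037). Under the HPD, levels were 4.95, 8.36, 7.28 and 5.51 CPM in Veh and 0, 1.47, 0.864 and 0.451 CPM in Cort (log2 fold change -3.26, SE 0.86, adjusted p = 0.032). The groups did not overlap, yet 10 and 5 of 16 fits that left out 1 library lost the call. Flt3, the growth factor receptor on which dendritic cells depend, was at 1.05, 2.01, 2.69 and 2.96 CPM in Veh NPD and at 0, 0, 0 and 0.801 CPM in Cort NPD, without overlap but not called (adjusted p = 0.14). Zbtb46, the transcription factor of conventional dendritic cells that vessel cells also make, was at 13.2 ± 6.26 and 11.2 ± 2.06 CPM on the NPD and 15.1 ± 1.75 and 11.9 ± 2.01 CPM on the HPD, not called.

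Counting members whose Cort and Veh libraries did not overlap, there were 18 on the NPD (16 lower and 2 higher, beside 14.9% of all genes) and 9 on the HPD (6 lower and 3 higher, beside 11.3%). Diet by itself changed 0 members in eWAT, in Veh mice (0.0593% of all genes called) or in Cort mice (0.487%). At an unadjusted p under 0.05 there were 7 and 4 members, a threshold for which the share of all genes was not computed. The member nearest to a call was Csf1r, at 104 ± 10.4 CPM in Cort NPD and 151 ± 23.2 CPM in Cort HPD without overlap (log2 fold change 0.53, SE 0.13, adjusted p = 0.066). It was called without Veh HPD replicate 4 or Cort HPD replicate 4, and with library totals, DESeq2, limma voom with quality weights or only the groups compared. The interaction of diet and Cort was called for 0 of 38 members and for 0.0132% of all genes (0.00658% in each direction). For the interaction 9 members had an unadjusted p under 0.05, again without a share of all genes to set beside them.

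In liver of mice fed the NPD, Cort lowered 3 of 4 Kupffer cell genes and 10 of 15 pan-macrophage genes. Of the 31 members tested, 18 were called on the NPD, 15 lower and 3 higher (Lyve1, Trem2 and Gpnmb), where 12.6% of all genes were called (5.79% lower and 6.84% higher). The median log2 fold change was -0.90 over the members and -0.01 over all genes. On the HPD 9 members were called, all of them lower, where 9.89% of all genes were called (5.14% lower and 4.75% higher), and the median was -0.62 over the members and -0.00 over all genes. The 7 members called on both diets (Csf1r, C1qb, Laptm5, Folr2, Timd4, Clec4f and Vsig4) were 7 of the 18 called on the NPD and 7 of the 9 called on the HPD. When 1 library was left out, the counts ranged from 12 to 20 on the NPD and from 6 to 13 on the HPD, where scaling by library totals or limma voom with quality weights gave 15. The hepatocyte list added to 66762 to 100402 CPM in Veh NPD, 96758 to 117441 CPM in Cort NPD, 61696 to 70233 CPM in Veh HPD and 134226 to 240519 CPM in Cort HPD, with 2 of 6 genes lower on the NPD and 3 higher and 1 lower on the HPD, and its part in the members' values was not tested.

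Of the Kupffer cell genes of liver, Clec4f and Vsig4 fell on both diets, Cd5l fell on the NPD and Marco was not called. Clec4f (ENSMUSG00000014542, chromosome 6 from 83644542 to 83656187 on GRCm38) was at 45.0, 45.8, 47.9 and 47.8 CPM in Veh NPD and at 18.5, 15.4, 16.7 and 17.2 CPM in Cort NPD (log2 fold change -1.46, SE 0.17, adjusted p = 3.2e-06). On the HPD it was at 46.0, 41.8 and 46.2 CPM in Veh and at 37.5, 25.2, 32.9 and 19.5 CPM in Cort (log2 fold change -0.64, SE 0.17, adjusted p = 0.022). The groups were apart on both diets, the replicates on the NPD lay within a few CPM of each other, and the HPD call was lost in 4 of 15 fits that left out 1 library.

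Between the Cort groups, Clec4f was 0.76 higher on the log2 scale on the HPD than on the NPD (SE 0.17, adjusted p = 0.0083), without overlap. Its interaction of diet and Cort was 0.82 (SE 0.24) and was not called (adjusted p = 0.19). The pattern of Cd5l was alike: it was at 99.0, 114, 64.4 and 73.3 CPM in Veh NPD and at 21.2, 25.0, 28.0 and 35.9 CPM in Cort NPD (log2 fold change -1.67, SE 0.21, adjusted p = 1.5e-05). The HPD libraries held 85.4, 88.8 and 69.0 CPM in Veh and 71.4, 38.8, 48.7 and 43.7 CPM in Cort, with Cort replicate 1 above Veh replicate 3 and an adjusted p of 0.053 (log2 fold change -0.68, SE 0.22). Cort HPD was above Cort NPD for Cd5l in every library (log2 fold change 0.88, SE 0.21, adjusted p = 0.016), a call lost without Cort NPD replicate 1 (adjusted p = 0.053), and the interaction of 0.99 (SE 0.30) was not called (adjusted p = 0.2).

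Vsig4 was at 50.7, 45.5, 30.4 and 41.5 CPM in Veh NPD and at 16.6, 17.0, 16.7 and 19.7 CPM in Cort NPD (log2 fold change -1.26, SE 0.18, adjusted p = 6.7e-05). HPD values were 34.8, 36.4 and 40.7 CPM in Veh and 27.3, 14.1, 20.6 and 18.4 CPM in Cort (log2 fold change -0.90, SE 0.19, adjusted p = 0.0048). No Cort library reached a Veh library on either diet. Marco behaved otherwise and was not called, at 14.6, 9.77, 3.46 and 1.78 CPM in Veh NPD, 2.54, 3.97, 7.87 and 4.50 CPM in Cort NPD, 3.91, 4.06 and 3.72 CPM in Veh HPD and 20.3, 9.71, 12.8 and 12.4 CPM in Cort HPD. All Cort HPD libraries were above the Veh HPD and Cort NPD libraries (adjusted p = 0.069 and 0.1). The 4 Kupffer genes together added to 146 to 215 CPM in Veh NPD, 59.0 to 77.3 CPM in Cort NPD, 160 to 171 CPM in Veh HPD and 87.8 to 156 CPM in Cort HPD.

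**Figure D3:**
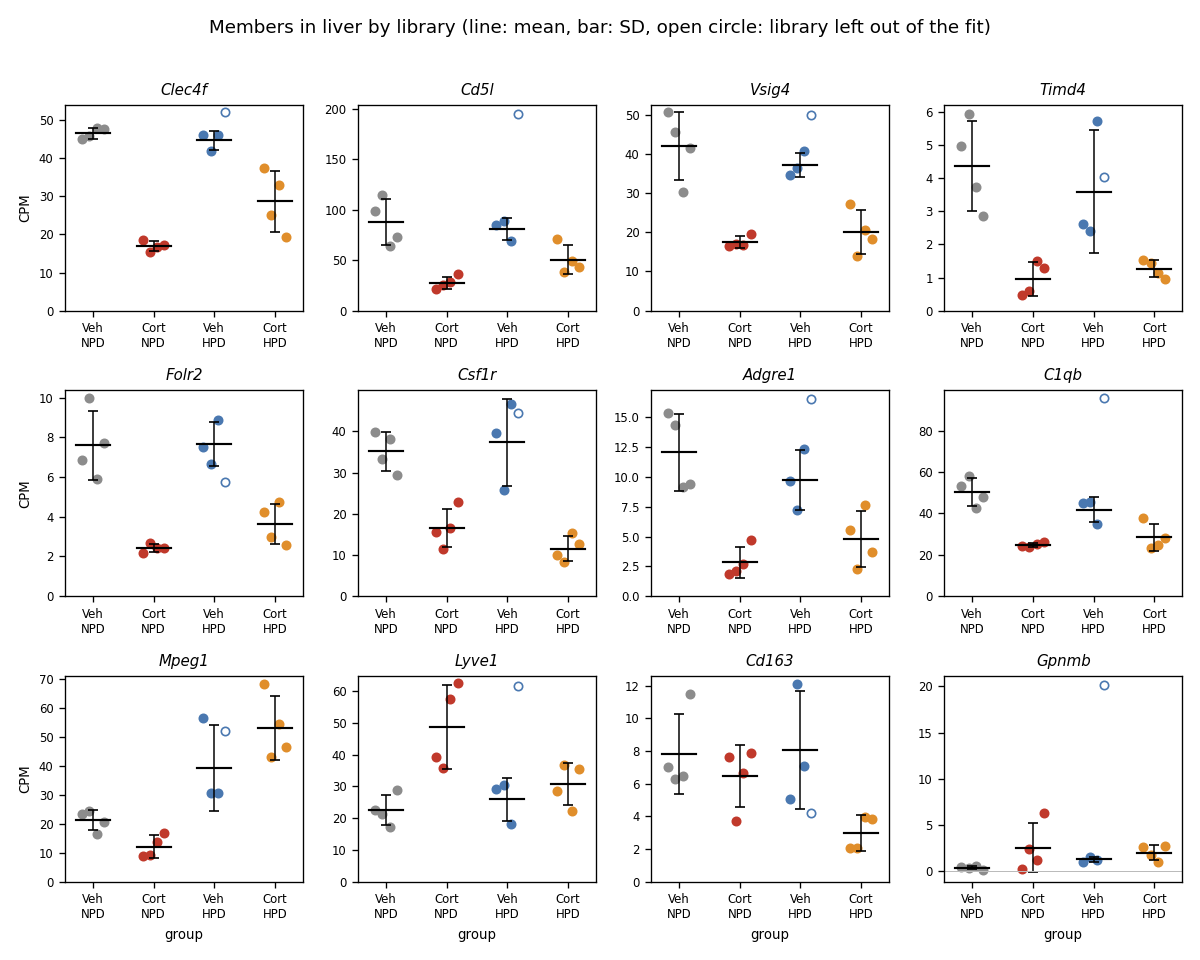
CPM of 12 members in each liver library, by group, with the mean as a line, the SD as a bar and an open circle for Veh HPD replicate 4, which was left out of the tests. Clec4f sat at 45.0 to 47.9 CPM in Veh NPD and at 15.4 to 18.5 CPM in Cort NPD, with Cort HPD between them at 19.5 to 37.5 CPM, and Mpeg1 was highest on the HPD.

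The resident genes Timd4 and Folr2 fell on both diets in liver. Timd4, which marks Kupffer cells of embryonic origin, was at 4.98, 5.95, 3.72 and 2.87 CPM in Veh NPD and at 0.462, 0.604, 1.51 and 1.28 CPM in Cort NPD (log2 fold change -2.15, SE 0.38, adjusted p = 0.00061). With the HPD the gene was at 2.62, 2.42 and 5.74 CPM in Veh and at 1.53, 1.45, 1.15 and 0.965 CPM in Cort (log2 fold change -1.49, SE 0.39, adjusted p = 0.018). The Cort libraries were the lower on both diets, and without Veh HPD replicate 3 the HPD value was -0.98 (adjusted p = 0.17) and without Cort HPD replicate 4 it was -1.38 (adjusted p = 0.052).

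Folr2 was at 6.88, 9.98, 5.89 and 7.69 CPM in Veh NPD and at 2.15, 2.67, 2.42 and 2.43 CPM in Cort NPD (log2 fold change -1.65, SE 0.24, adjusted p = 6.4e-05). Under the HPD, levels were 7.53, 6.65 and 8.85 CPM in Veh and 4.24, 2.97, 4.74 and 2.60 CPM in Cort (log2 fold change -1.08, SE 0.24, adjusted p = 0.0061). Both calls were kept in every fit that left out 1 library.

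Lyve1 rose on the NPD, from 22.5, 21.3, 17.3 and 28.9 CPM in Veh to 39.2, 35.7, 57.5 and 62.6 CPM in Cort (log2 fold change 1.11, SE 0.22, adjusted p = 0.0016) without overlap. On the HPD it was at 29.1, 30.6 and 18.2 CPM in Veh and 28.7, 36.6, 22.2 and 35.3 CPM in Cort, not called (adjusted p = 0.56), and the interaction was -0.87 (SE 0.32, adjusted p = 0.27). Vessel cells of the liver also carry this receptor. Of 6 sinusoidal endothelial genes 0 were called on the NPD, where their sum was 146 to 171 CPM in Veh and 136 to 158 CPM in Cort, and 1 (Dnase1l3) was lower on the HPD, where the sum was 149 to 164 CPM in Veh and 104 to 125 CPM in Cort. Of 4 lymphatic genes tested 0 were called on the NPD, where the whole lymphatic list added to 141 to 231 CPM in Veh and 206 to 305 CPM in Cort. The part of these cells in Lyve1 was not tested.

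Cd163 was called on the HPD, at 5.08, 12.1 and 7.09 CPM in Veh and at 2.03, 2.04, 3.98 and 3.86 CPM in Cort (log2 fold change -1.43, SE 0.33, adjusted p = 0.0088) without overlap. Without Veh HPD replicate 2 it was -1.02 (adjusted p = 0.077). On the NPD it was at 7.03, 6.26, 6.49 and 11.5 CPM in Veh and 7.62, 3.71, 6.66 and 7.90 CPM in Cort (log2 fold change -0.27, adjusted p = 0.62), and Cort HPD minus Cort NPD was -1.13 on the log2 scale (SE 0.32, adjusted p = 0.039) with overlap, a call lost in 5 of 15 fits that left out 1 library. The interaction for Cd163 was -1.16 (SE 0.45) and not called (adjusted p = 0.31).

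Clec10a had few counts in liver. It was at 1.51, 0.864 and 1.55 CPM in Veh HPD and at 0.170, 0.291, 0.0765 and 0.445 CPM in Cort HPD (log2 fold change -2.36, SE 0.68, adjusted p = 0.031), and on the NPD at 0.474, 0.425, 0.433 and 0.0845 CPM in Veh and 0.154, 0.0863, 0.984 and 0.304 CPM in Cort (adjusted p = 0.94). The HPD groups did not overlap, and the call was lost in 5 of 15 fits that left out 1 library and with the replicate number as a block. Clec10a would not have passed the filter on low counts without its Veh HPD libraries, so this call leans on the group where it was high. Mrc1, which liver vessel cells share with macrophages, was at 24.1 ± 7.17 and 20.2 ± 8.85 CPM on the NPD and 20.9 ± 0.803 and 13.9 ± 2.57 CPM on the HPD, not called. Retnla, so abundant in eWAT, had 0 to 26 counts in the 15 livers and was not tested.

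Of the 16 pan-macrophage genes, 15 were tested in liver, and 10 fell on the NPD and 3 on the HPD. Csf1r was at 39.9, 33.2, 38.1 and 29.4 CPM in Veh NPD and at 15.5, 11.5, 16.5 and 22.8 CPM in Cort NPD (log2 fold change -1.08, SE 0.22, adjusted p = 0.002). The HPD libraries held 39.7, 25.7 and 46.6 CPM in Veh and 10.1, 8.20, 15.2 and 12.8 CPM in Cort (log2 fold change -1.69, SE 0.24, adjusted p = 7.8e-05). Its groups did not overlap on either diet, and both calls were kept in all 15 fits that left out 1 library.

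Laptm5 was at 7.59, 8.92, 6.49 and 5.41 CPM in Veh NPD and at 2.62, 3.62, 4.77 and 5.35 CPM in Cort NPD (log2 fold change -0.78, SE 0.25, adjusted p = 0.041), a call lost in 6 of 15 fits that left out 1 library. HPD values were 11.8, 6.83 and 8.92 CPM in Veh and 2.03, 3.14, 2.98 and 3.12 CPM in Cort (log2 fold change -1.70, SE 0.27, adjusted p = 0.00025), a call lost in none. On the NPD the groups nearly touched, on the HPD they were well apart, and the interaction of -0.92 (SE 0.37) was not called (adjusted p = 0.32).

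The C1q genes, which lie side by side on chromosome 4 between 136880129 and 136898803 (GRCm38) and encode the chains of the complement starter C1q, fell on the NPD in liver. C1qb was at 53.4, 58.2, 42.6 and 47.8 CPM in Veh NPD and at 24.2, 23.6, 25.4 and 26.0 CPM in Cort NPD (log2 fold change -1.02, SE 0.16, adjusted p = 0.00014). C1qc was at 63.1, 65.6, 47.5 and 56.6 CPM in Veh and 24.0, 24.7, 28.5 and 29.4 CPM in Cort (log2 fold change -1.13, SE 0.17, adjusted p = 0.00012), and C1qa at 94.5, 84.0, 58.4 and 53.9 CPM in Veh and 39.9, 29.5, 41.3 and 51.1 CPM in Cort (log2 fold change -0.84, SE 0.25, adjusted p = 0.035). All Cort NPD libraries were below all Veh NPD libraries for the 3 genes, and the C1qa call was lost in 5 of 15 fits that left out 1 library.

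On the HPD only C1qb of these genes was called, at 45.1, 45.5 and 35.1 CPM in Veh and 37.6, 23.4, 24.6 and 28.4 CPM in Cort (log2 fold change -0.56, SE 0.17, adjusted p = 0.039), with overlap, and the call was lost in 5 of 15 fits that left out 1 library. C1qa and C1qc were at 60.2 ± 7.31 and 49.9 ± 4.19 CPM in Veh HPD and at 46.6 ± 21.1 and 39.6 ± 11.9 CPM in Cort HPD. Within Cort HPD replicate 1 was the highest, with a C1q sum of 173 CPM against 94.0 CPM in the lowest library of the group. The difference between the diets was not called for the 3 genes (interaction adjusted p = 0.64, 0.44 and 0.21 for C1qa, C1qb and C1qc).

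Adgre1 was at 15.3, 14.3, 9.18 and 9.38 CPM in Veh NPD and at 1.85, 2.07, 2.73 and 4.74 CPM in Cort NPD (log2 fold change -2.06, SE 0.35, adjusted p = 0.00052). Ctss was at 56.6, 58.8, 37.7 and 46.2 CPM in Veh and at 13.1, 14.6, 15.9 and 24.8 CPM in Cort (log2 fold change -1.54, SE 0.26, adjusted p = 0.00065). Tyrobp was at 25.1, 29.5, 15.5 and 17.1 CPM in Veh and at 7.85, 8.71, 6.81 and 11.9 CPM in Cort (log2 fold change -1.30, SE 0.29, adjusted p = 0.007). These macrophage genes, for the surface marker, the protease and the adaptor, separated the NPD groups completely and kept their calls in all 15 fits that left out 1 library. Fcer1g was at 11.9, 16.6, 10.0 and 11.5 CPM in Veh and at 3.77, 7.59, 5.38 and 9.91 CPM in Cort, narrowly apart (log2 fold change -0.90, SE 0.24, adjusted p = 0.015), and was not called without Veh NPD replicate 2 (adjusted p = 0.067) or Cort NPD replicate 3 (adjusted p = 0.055). On the HPD these 4 genes had log2 fold changes of -1.04 (Adgre1), -0.68 (Ctss), -0.62 (Tyrobp) and -0.48 (Fcer1g), none called.

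Mpeg1 stood apart from the other pan-macrophage genes by its diet effect. It was at 23.5, 24.3, 16.5 and 20.5 CPM in Veh NPD and at 8.93, 9.06, 13.7 and 16.9 CPM in Cort NPD (log2 fold change -0.80, SE 0.24, adjusted p = 0.029) with overlap, lost in 5 of 15 fits that left out 1 library. With the HPD the gene was at 56.5, 30.6 and 30.7 CPM in Veh and at 68.2, 43.1, 54.5 and 46.6 CPM in Cort, not called (log2 fold change 0.43, adjusted p = 0.29). All HPD libraries were above all NPD libraries of the same treatment, by 2.12 on the log2 scale in Cort mice (SE 0.24, adjusted p = 2.2e-05) and by 0.89 in Veh mice (SE 0.24, adjusted p = 0.18).

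The interaction for Mpeg1 was 1.23 (SE 0.34, adjusted p = 0.17) and was called only without Veh HPD replicate 1. Dtx4, the gene beside it, was at 12.4 ± 1.99 CPM in Cort NPD and 8.34 ± 1.40 CPM in Cort HPD (log2 fold change -0.57, SE 0.22, adjusted p = 0.12). The remaining pan-macrophage genes tested in liver, Cd68, Lyz2, Cd14, Fcgr1 and Ms4a7, were not called in any comparison within liver, with log2 fold changes from -1.75 (Ms4a7) to -0.60 (Cd14) for Cort on the NPD and from -1.17 (Ms4a7) to 0.42 (Cd14) on the HPD.

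Among the lipid-associated genes, 2 rose in liver on the NPD from very low levels. Gpnmb was at 0.474, 0.319, 0.519 and 0.0845 CPM in Veh NPD and at 0.154, 2.42, 1.21 and 6.26 CPM in Cort NPD (log2 fold change 2.83, SE 0.76, adjusted p = 0.02). Trem2 was at 0.237, 0.106, 0 and 0.254 CPM in Veh NPD, at most 3 counts a library and 7 in all, and at 0.693, 1.04, 0.681 and 1.95 CPM in Cort NPD (log2 fold change 2.78, SE 0.86, adjusted p = 0.037). Replicate 4 was the highest Cort NPD library for both, the Gpnmb groups overlapped, and without this library the values were 1.79 (adjusted p = 0.098) for Gpnmb and 2.30 (adjusted p = 0.13) for Trem2. On the HPD Gpnmb was at 1.004, 1.56 and 1.22 CPM in Veh and 2.54, 1.69, 0.995 and 2.75 CPM in Cort, and Trem2 at 0.725, 0.432 and 1.49 CPM in Veh and 2.12, 0.814, 0 and 0.891 CPM in Cort, neither called, and the interaction was called for neither (adjusted p = 0.42 and 0.35). Spp1 was at 17.4 ± 3.80 CPM in Veh NPD and 13.5 ± 5.69 CPM in Cort NPD, not called.

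The chemokine receptors were low in liver, and of the 5 dendritic genes only Zbtb46 had enough counts to be tested. Ccr2 was at 1.97 ± 1.01 and 0.836 ± 1.24 CPM on the NPD and 2.13 ± 0.602 and 0.626 ± 0.262 CPM on the HPD, and Cx3cr1 at 1.14 ± 0.641 and 1.21 ± 0.828 CPM on the NPD, neither called. Xcr1 was at 0.553, 0.425, 0.260 and 0.761 CPM in Veh NPD and had no count in Cort NPD, 23 counts against 0, and so was at least 9.15-fold lower in these libraries. On the HPD it had 19 counts in Veh and 1 in Cort, a ratio of 23.8 (95% interval 3.79 to 990 from the counts alone). Xcr1 was too scarce to be tested in liver, yet the Cort groups of both tissues and diets held 2 of its counts in all 16 libraries.

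Further members at or under 3 counts in each library of a group can be given as counts only. Cd209a had 5 counts in Veh NPD and 1 in Cort NPD (ratio 5.97, 95% interval 0.668 to 282), and 6 in Veh HPD and 0 in Cort HPD, at least 2.51-fold lower. Itgax had 8 counts in Veh NPD and 0 in Cort NPD, at least 3.18-fold lower, Mgl2 had 13 in Veh HPD and 3 in Cort HPD (ratio 5.43, 95% interval 1.49 to 29.7), and Lyz1 had 10 in Veh NPD and 3 in Cort NPD (ratio 3.98, 95% interval 1.02 to 22.5). These intervals cover counting error alone and not the spread between libraries. Clec9a had 39 counts in Veh NPD, 12 in Cort NPD, 17 in Veh HPD and 11 in Cort HPD, and Flt3 had 13, 4, 22 and 4, not tested. Zbtb46 was at 4.21 ± 0.881 CPM in Veh NPD and 5.71 ± 1.25 CPM in Cort NPD, not called.

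Over the members tested in liver, 17 had Cort and Veh libraries that did not overlap on the NPD (15 lower and 2 higher, beside 18.5% of all genes) and 12 on the HPD (11 lower and 1 higher, beside 21.2%). Diet changed 0 of 31 members in Veh mice, where 0.169% of all genes were called (0.105% higher and 0.0646% lower). There, 4 members had libraries that did not overlap between the diets, beside 9.47% of all genes. At an unadjusted p under 0.05 there were 4 members, a threshold for which the share of all genes was not computed. In Cort mice 4 members were called (5.88% of all genes, 3.08% higher and 2.80% lower), Mpeg1, Clec4f and Cd5l higher and Cd163 lower on the HPD. With library totals the split was 3 higher and 2 lower, and with all liver libraries 2 were called, both higher. The interaction was called for 0 of 31 members (0.113% of all genes), and its median was 0.42 over the members and -0.00 over all genes. For the interaction 11 members had an unadjusted p under 0.05, again without a share of all genes to set beside them.

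**Figure D4:**
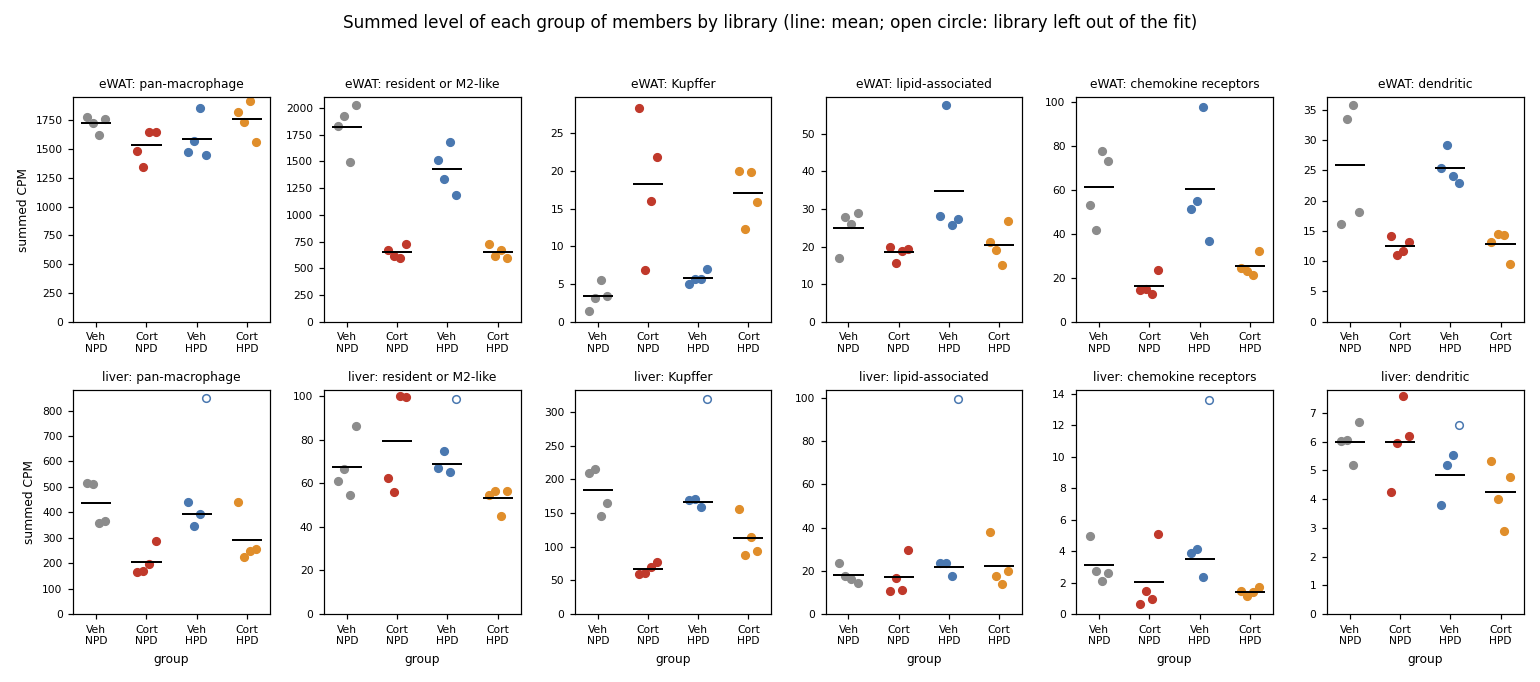
Summed CPM of each group of members in each library of eWAT (top) and liver (bottom), with the mean as a line and an open circle for the liver library left out. In eWAT the resident or M2-like sum, Retnla included, was 1182 to 2025 CPM in Veh and 594 to 727 CPM in Cort, and in liver the Kupffer sum was 146 to 215 CPM in Veh NPD and 59.0 to 77.3 CPM in Cort NPD.

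The responses of the tissues to Cort were compared in 1 fit of 31 libraries, in which all 39 members passed the filter. The labels do not tie a liver library to a fat library, so this fit did not pair the tissues. It estimated the spread of each gene over both tissues together. Clec4f had no count in eWAT, so its difference could not be estimated (SE 2105 on the NPD and 1025 on the HPD). The same held for Xcr1 on the NPD (SE 1184), and both genes are in the medians below. On the NPD 9 members responded differently, 8 with a lower response in liver and 1 (Gpnmb) with a higher one, where 3.85% of all genes were called (1.35% lower and 2.51% higher). On the HPD 8 members responded differently, all lower in liver, where 3.12% of all genes were called (2.01% lower and 1.11% higher). The median difference was -0.46 on the NPD and -0.59 on the HPD over the members, and 0.06 and -0.08 over all genes. Leaving out 1 library gave 6 to 12 members on the NPD and 6 to 11 on the HPD.

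Vsig4 and Cd5l had fold changes of opposite signs in the tissues. The response of Vsig4 in liver minus that in eWAT was -4.69 on the log2 scale (NPD: SE 0.55, adjusted p = 4.9e-06) and -2.38 (HPD: SE 0.52, adjusted p = 0.0079). For Cd5l the difference was -3.24 (NPD: SE 0.41, adjusted p = 4.9e-06) and -2.88 (HPD: SE 0.40, adjusted p = 2.6e-05). The fold changes of both genes were negative in liver and positive in eWAT on both diets, but those of Cd5l in eWAT on the NPD, of Cd5l in liver on the HPD and of Vsig4 in eWAT on the HPD were not called.

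Folr2 fell in liver on both diets and had log2 fold changes of -0.00 and 0.48 in eWAT on the NPD and HPD, a difference of -1.60 (NPD: SE 0.26, adjusted p = 0.00021) and -1.61 (HPD: SE 0.26, adjusted p = 0.00027). C1qb differed by -0.84 for NPD (SE 0.21, adjusted p = 0.014) and by -0.77 for HPD (SE 0.22, adjusted p = 0.04), and Cd68 by -1.12 (SE 0.33, adjusted p = 0.046) and -1.25 (SE 0.33, adjusted p = 0.028). These 5 genes, Vsig4, Cd5l, Folr2, C1qb and Cd68, were called on both diets. However, C1qb on the HPD was lost in 19 of the 31 fits that left out 1 library. Cd68 was lost in 13 of these fits on the NPD and in 7 on the HPD. Called on 1 diet alone were Timd4 (-2.50, SE 0.59, adjusted p = 0.0098), Adgre1 (-1.37, SE 0.38, adjusted p = 0.033), C1qc (-1.05, SE 0.22, adjusted p = 0.0034) and Gpnmb (2.97, SE 0.80, adjusted p = 0.031) on the NPD. On the HPD they were Clec10a (-2.56, SE 0.53, adjusted p = 0.0041), Csf1r (-1.62, SE 0.28, adjusted p = 0.0004) and Laptm5 (-1.37, SE 0.30, adjusted p = 0.0071). Gpnmb was lost in 9 and Adgre1 in 7 of the 31 fits that left out 1 library. With limma voom the calls of Adgre1, Gpnmb, Clec10a and Laptm5 were lost. Gpnmb was also lost without the filter and with all liver libraries. The difference between the diets in these tissue differences was not tested.

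**Figure D5:**
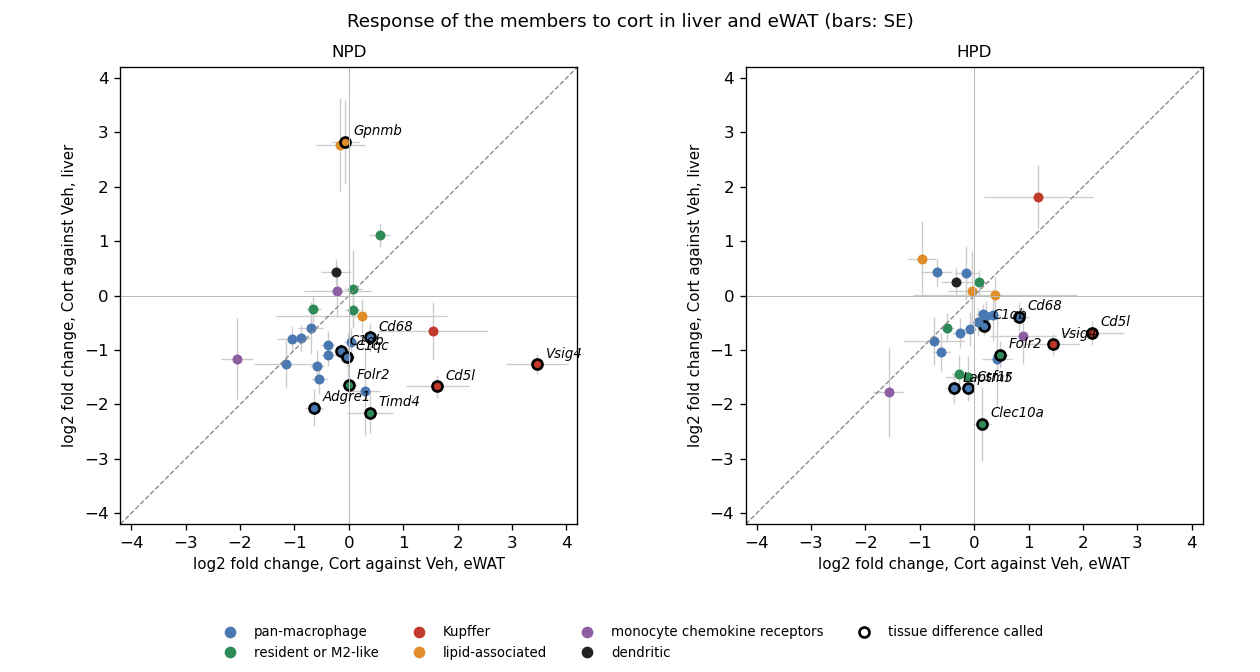
Log2 fold change with Cort in eWAT (horizontal) and liver (vertical) of the members tested in both tissues, on the NPD (left) and HPD (right), with SE bars, colours for the groups of members and a black rim and name where the tissue difference was called. Vsig4 and Cd5l lie at the lower right, with 3.46 and 1.63 in eWAT and -1.26 and -1.67 in liver on the NPD, and most other named genes lie below the dashed line of equal response.

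Genes that make, guide or activate these cells were taken from 4 further lists written by hand. Beside the counts for these lists, Cort changed 7.98% (NPD) and 6.09% (HPD) of all genes tested in eWAT. In liver the shares were 12.6% (NPD) and 9.89% (HPD). In lists this short, a count of 1 does not set the list apart from other genes. Of 14 transcription factors of macrophages and dendritic cells, Cort lowered 4 and raised 1 in eWAT on the NPD and lowered 1 and raised 1 on the HPD. Irf8, on which dendritic cells depend, fell on both diets, from 34.5 ± 3.72 to 21.1 ± 0.199 CPM on the NPD (log2 fold change -0.71, SE 0.16, adjusted p = 0.0056) and from 29.8 ± 6.29 to 20.3 ± 1.962 CPM on the HPD (-0.56, SE 0.16, adjusted p = 0.038). Batf3, which the Xcr1-bearing dendritic cells need, fell from 8.72 ± 1.88 to 1.66 ± 0.384 CPM on the NPD (-2.40, SE 0.42, adjusted p = 0.0004) and was at 6.12 ± 3.73 and 3.49 ± 1.39 CPM on the HPD (adjusted p = 0.27, interaction adjusted p = 0.86). Irf4 and Id2 also fell on the NPD, and Id3, an inhibitor of helix-loop-helix factors, rose from 136 ± 26.4 to 225 ± 31.7 CPM on the NPD (0.73, SE 0.15, adjusted p = 0.0018) and from 174 ± 24.7 to 259 ± 40.6 CPM on the HPD (0.57, SE 0.15, adjusted p = 0.016). The myeloid master factor Spi1 (PU.1) was at 20.6 ± 2.52 and 16.9 ± 3.19 CPM on the NPD, not called.

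In liver, 6 of 13 transcription factors fell and 1 (Maf) rose on the NPD, and 5 fell on the HPD. Spi1 fell from 4.40 ± 0.838 to 1.81 ± 0.584 CPM on the NPD (log2 fold change -1.28, SE 0.29, adjusted p = 0.0045) and from 3.97 ± 0.455 to 1.83 ± 0.501 CPM on the HPD (-1.11, SE 0.30, adjusted p = 0.02). Irf8 fell from 7.27 ± 2.17 to 4.28 ± 0.202 CPM on the NPD (-0.76, SE 0.22, adjusted p = 0.026) and from 10.2 ± 1.46 to 3.04 ± 0.633 CPM on the HPD (-1.73, SE 0.23, adjusted p = 5.7e-05). Id3, which Kupffer cells need, fell from 80.9 ± 19.4 to 47.3 ± 5.87 CPM on the NPD (-0.77, SE 0.20, adjusted p = 0.012) and from 72.3 ± 6.66 to 30.6 ± 9.97 CPM on the HPD (-1.24, SE 0.21, adjusted p = 0.00066). Spic fell on the NPD, Id2 on the NPD, Zeb2 on the HPD and Cebpb on both. Hepatocytes share Cebpb and Id2 with macrophages.

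Of 8 growth factors and chemoattractants tested in eWAT, 1 was called on each diet: Ccl8, a chemokine that macrophages make, fell from 15.8 ± 3.98 to 3.04 ± 0.374 CPM on the NPD (log2 fold change -2.38, SE 0.33, adjusted p = 2.3e-05) and from 15.3 ± 6.25 to 3.29 ± 1.29 CPM on the HPD (-2.22, SE 0.33, adjusted p = 8.3e-05). The growth factors Csf1 (28.5 ± 4.10 and 27.0 ± 9.87 CPM on the NPD) and Il34 (49.8 ± 1.10 and 67.2 ± 6.52 CPM) were not called. In liver, of 5 tested, Xcl1 was called lower on both diets and Ccl7 higher on the HPD. Xcl1, the ligand of the Xcr1 receptor, was at 0.841 ± 0.2504 CPM in Veh NPD and at 0 in all Cort NPD libraries, and at 0.729 ± 0.492 CPM in Veh HPD and 0.0424 ± 0.0848 CPM in Cort HPD. Xcl1 passed the filter on low counts through Veh libraries alone, so its calls lean on the groups where it was high.

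Among 9 genes of the IL-4 and IL-13 response tested in eWAT, 2 rose and 2 fell on the NPD, and 2 rose and 1 fell on the HPD. Ear2, an eosinophil-type ribonuclease gene, fell with Retnla, from 14.3 ± 2.10 to 3.27 ± 1.83 CPM on the NPD (log2 fold change -2.12, SE 0.37, adjusted p = 0.00035) and from 10.3 ± 2.63 to 3.40 ± 1.47 CPM on the HPD (-1.57, SE 0.36, adjusted p = 0.0073). Stat6 rose from 40.2 ± 1.56 to 60.6 ± 5.97 CPM on the NPD (0.59, SE 0.14, adjusted p = 0.0057) and from 36.4 ± 6.46 to 51.6 ± 3.85 CPM on the HPD (0.50, SE 0.14, adjusted p = 0.023). Chil3, a chitinase-like protein of alternatively activated macrophages and neutrophils, rose from 0.913 ± 0.941 to 20.9 ± 17.2 CPM on the NPD (4.47, SE 0.96, adjusted p = 0.012) and from 1.36 ± 1.27 to 21.3 ± 2.49 CPM on the HPD (3.98, SE 0.92, adjusted p = 0.023). The list thus held genes that moved in opposite directions in the same libraries, Retnla itself being outside it. In liver Chil3 rose on both diets as well, from 0.439 ± 0.428 to 6.46 ± 8.25 CPM on the NPD (3.87, SE 1.10, adjusted p = 0.039) and from 0.365 ± 0.292 to 11.8 ± 8.01 CPM on the HPD (4.86, SE 1.20, adjusted p = 0.026). Chil3 was scarce in both Veh groups of liver, so these calls lean on the Cort groups where it was high. In Cort NPD liver its SD was above its mean. Arg1, in liver an enzyme of the hepatocyte urea cycle, rose on the HPD from 1034 ± 50.8 to 1595 ± 172 CPM (0.63, SE 0.18, adjusted p = 0.027).

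Of 7 classical activation genes in eWAT, Cd40 alone fell on the NPD (2.67 ± 1.36 to 0.406 ± 0.183 CPM, log2 fold change -2.68, SE 0.74, adjusted p = 0.02) and 0 were called on the HPD, and of 2 in liver Cd86 fell on the NPD (2.50 ± 0.823 to 0.735 ± 0.375 CPM, -1.73, SE 0.42, adjusted p = 0.0078). Cd40 was scarce in Cort NPD, so its call leans on the Veh group where it was high. Of all genes tested, Cort changed 7.98% in eWAT and 12.6% in liver on the NPD. Tnf and Il1b were under 1 CPM on average in every eWAT group and were not called.

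Markers of other cells moved in part with the members. Of all genes tested, Cort changed 7.98% (NPD) and 6.09% (HPD) in eWAT and 12.6% (NPD) and 9.89% (HPD) in liver. In eWAT on the NPD, 4 of 6 fibroblast and progenitor genes fell and their sum was 3521 to 4163 CPM in Veh and 2194 to 2371 CPM in Cort, while on the HPD 3 fell and the sum was 3718 to 3970 and 2407 to 2750 CPM. Of 6 adipocyte genes 2 rose and 2 fell on the NPD. No neutrophil, T and NK cell or B cell gene was called in eWAT, where the T and NK cell list added to 3.31 to 14.9 CPM in Veh NPD, 2.18 to 5.97 CPM in Cort NPD, 5.90 to 13.2 CPM in Veh HPD and 2.13 to 96.3 CPM in Cort HPD, the highest in replicate 4, the library with epididymis transcripts. In liver, 2 of 4 T and NK cell genes tested (Trac and Nkg7) fell on the NPD. There the whole list added to 4.88 to 6.96 CPM in Veh and 0.431 to 2.62 CPM in Cort, and on the HPD to 2.94 to 4.80 and 0.640 to 1.53 CPM. The part of these cells in the members' values was not tested.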

How the data were processed

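RNA of eWAT and liver was sequenced by the authors from the 3′ end of transcripts (QuantSeq 3′ mRNA-Seq kit), and the deposited table holds raw counts per Ensembl gene for 32 libraries. The submitters' processing notes list GRCm38/mm10, R 4.0.3 and limma, and the aligner, the counter and its use of strand are not given in the sources used here, so overlapping genes and near-identical copies may share reads. Of 47643 gene IDs, 47224 had a symbol and 22199 had no count. Groups came from the labels, which do not state separate animals per library, so p-values measure the spread between these libraries. The 39 members and the further gene lists (113 of 114 genes matched) were chosen with earlier results of these data known. Members called in a tissue, or at 3 counts or fewer per library in a group, were named with values for each library.

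Counts were fitted in R 4.3.3 with edgeR 4.0.16 (filterByExpr with a minimum count of 10 and a minimum total of 15, TMM factors, glmQLFit and glmQLFTest). There was 1 model per tissue with 4 groups, and 1 model of both tissues for the tissue difference. In the models per tissue the TMM factors ran from 0.754 (liver Cort HPD replicate 1) to 1.11 (liver Veh HPD replicate 1). The liver library left out had a factor of 1.45. Every adjusted p is from edgeR's quasi-likelihood test with Benjamini-Hochberg adjustment over all genes tested. Biological coefficients of variation were 0.372 in eWAT and 0.228 in liver. The scripts were tested on simulated data. Alternatives were other scaling, no filter, DESeq2 1.42.0, limma 3.58.1 voom, a block for the replicate number, the inclusion of all liver libraries, only the groups compared, and leaving out each library. Totals were 9794683 to 18057936 counts in eWAT and 8933307 to 17447524 in liver, where 3 counts correspond to 0.166 to 0.306 CPM and 0.172 to 0.336 CPM. The 48 pairs of replicates all differed beyond sampling noise. Intervals and floors cover counting error only. Same-numbered libraries did not deviate together (r over 0.1 in 1 of 24 pairs of eWAT and 3 of 21 of liver), so the numbers were not used as pairs.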

Additional observations from a re-analysis of the deposited data

Results flagged for a closer look

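A library was listed here where it stood apart from the other libraries of its group by Dixon's test, which chance does in about 1 in 20 groups, and 14 of the 268 groups checked did. In eWAT, Fcer1g was at 57.7 CPM in Veh HPD replicate 3 (50.3 to 51.2 CPM in the others), Fcgr1 at 1.17 CPM in Veh HPD replicate 4 (3.49 to 3.62 CPM) and Cd5l at 0.324 CPM in the same library (1.10 to 1.21 CPM). Mgl2 was at 37.0 CPM in Cort HPD replicate 4 (46.0 to 47.1 CPM), and Itgax at 4.76 CPM in Veh NPD replicate 1 (7.06 to 7.16 CPM). The sum of the lipid-associated genes was 57.5 CPM in Veh HPD replicate 2 (25.6 to 28.1 CPM).

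In liver, 4 of these values were in Cort HPD replicate 1: C1qa at 77.8 CPM (32.8 to 40.4 CPM in the others), Ctss at 44.6 CPM (17.9 to 21.8 CPM), Laptm5 at 2.03 CPM (2.98 to 3.14 CPM) and the sum of the pan-macrophage genes at 439.9 CPM (225 to 257 CPM). Lyz2 was at 72.8 CPM in Cort NPD replicate 4 (21.0 to 28.9 CPM) and Vsig4 at 19.7 CPM in the same library (16.6 to 17.0 CPM). Cd163 was at 11.5 CPM in Veh NPD replicate 4 (6.26 to 7.03 CPM), and the sum of the resident or M2-like genes was 45.0 CPM in Cort HPD replicate 3 (54.6 to 56.4 CPM).

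The response to Cort differed between liver and eWAT, by edgeR's test of the difference itself, for 17 combinations of member and diet. On the NPD the log2 differences, liver minus eWAT, were -1.37 for Adgre1, -1.12 for Cd68, -0.84 for C1qb, -1.05 for C1qc, -1.60 for Folr2, -2.50 for Timd4, -3.24 for Cd5l, -4.69 for Vsig4 and 2.97 for Gpnmb. On the HPD they were -1.62 for Csf1r, -1.25 for Cd68, -0.77 for C1qb, -1.37 for Laptm5, -1.61 for Folr2, -2.56 for Clec10a, -2.88 for Cd5l and -2.38 for Vsig4.

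Liver Veh HPD replicate 4, outside the tests, held 1386 CPM over all members, against 582 to 819 CPM in the other Veh livers. Of the members, 25 were above and 2 below the range of those livers, with Gpnmb at 20.1 CPM, Trem2 at 7.51 CPM, Marco at 22.5 CPM, Cd14 at 35.4 CPM and Lyz2 at 147 CPM. The share of all genes outside that range was not computed, so the counts do not set the members apart from other genes. The hepatocyte list of this library added to 31509 CPM.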

How the results depend on the processing

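Of 73 member calls over all comparisons, 41 were kept in every fit that left out 1 library, 48 under every other alternative and 38 under both, and 0 changed direction. Leaving out 1 library gave 9 to 15 member calls for Cort on the NPD in eWAT, 4 to 12 on the HPD and 0 to 1 for diet in Cort mice (Csf1r). In liver it gave 12 to 20 for Cort on the NPD, 6 to 13 on the HPD, 2 to 5 for diet in Cort mice and 0 to 1 for the interaction, and for the tissue difference 6 to 12 on the NPD and 6 to 11 on the HPD. Among the other settings, library totals, DESeq2, limma voom with quality weights and only the groups compared each called 1 member for diet in Cort eWAT (0 before). Library totals and quality weights each called 15 for Cort on the HPD in liver (9 before), all liver libraries called 2 for diet in Cort mice (4 before), and limma voom called 5 for the tissue difference on the HPD (8 before). With the replicate number as a block, 13 and 10 members were called for Cort in eWAT and 17 and 8 in liver on the NPD and HPD, and 5 for diet in Cort livers. Library totals moved the median of all genes by -0.11 for Cort on the NPD in eWAT, and in liver by -0.24 for Cort on the HPD, -0.18 for diet in Cort mice and -0.22 for the interaction, and by -0.24 for the tissue difference on the HPD. With all liver libraries the NPD calls of C1qa, Fcer1g, Laptm5, Trem2 and Gpnmb were lost (adjusted p = 0.10, 0.076, 0.12, 0.15 and 0.19). The causes were not tested.

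Counts over all genes moved by more than 1.5 times as follows. In eWAT, diet in Veh mice gave 9, and 129 with DESeq2, 16 with library totals, 24 with voom, 54 with quality weights, 30 without the filter and 4 with only the groups compared. Diet in Cort mice gave 74, and 195 with DESeq2, 142 with quality weights and 165 with only the groups compared, and the interaction gave 2, and 0 with library totals or either voom fit, 7 with DESeq2, 4 without the filter and 9 with the block. In liver, Cort on the NPD gave 1565 and 998 with all libraries, diet in Veh mice gave 21, and 111 with DESeq2, 42 with quality weights, 56 without the filter and 7 with all libraries, and diet in Cort mice gave 729 and 371 with all libraries. The liver interaction gave 14, and 9 with RLE factors or quality weights, 23 with library totals, 125 with DESeq2, 3 with voom, 72 without the filter and 1 with all libraries. The tissue difference on the NPD gave 635 and 422 with voom. Depth limits what can be said of genes with few counts, such as Xcr1, Clec9a and Cd209a, and its part in their calls was not tested.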
